A study of Mus musculus with 72 samples.

Results

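Intergenic H3K27me2 sites are the stretches between protein-coding genes at which the authors listed a difference in dimethylated lysine 27 of histone H3 after chronic social defeat stress (CSDS). A site was kept when it lay on an autosome and overlapped neither a protein-coding gene body nor the 1000 bp on either side of a gene start (GENCODE M21, mouse genome build mm10). The rule used position only. It kept 1842 of 2075 autosomal sites (88.8%) in the susceptible against control table and 4213 of 4654 (90.5%) in the resilient against control table. Merging sites that overlapped gave 5701 separate regions, beside 25879 sites in the 4 CSDS tables for both marks of the series. Tissue came from wildtype adult male mice and was the nucleus accumbens, which lies in the ventral striatum and takes part in reward. Mice without defeat were the controls, and the defeated mice had been labelled susceptible or resilient. Each of the 3 groups had 4 H3K27me2 libraries, made by CUT&RUN, in which an antibody-bound nuclease cuts out DNA carrying the mark for sequencing. Whether each library came from its own animal is not stated in the labels. A p-value over libraries therefore reflects the spread of these samples alone, and that spread may be technical. The tissue is a mixture of cell types, in which a change in the mark and a change in the share of cells that carry it cannot be told apart.

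H3K27me2 is laid down by Polycomb repressive complex 2 (PRC2), whose catalytic subunit is EZH2 or EZH1. It is the middle step between monomethylation, found over transcribed gene bodies, and trimethylation, found at silenced developmental genes. The dimethyl mark is known as a broad mark that spreads over inactive chromatin between genes, where it precludes acetylation of the same residue. Gene deserts are long stretches without protein-coding genes, and many lie beside genes for neuronal adhesion molecules and developmental regulators.

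Site sequences themselves were not read, because no genome of this build was used here. A few sites reach the start of a non-coding or predicted gene, for which RefSeq gives 300 bases around the start (build GRCm38.p6, which carries mm10 coordinates). Windows of this kind overlapped 8 of the 1842 susceptible sites and 14 of the 4213 resilient ones. In 7 windows the site appears in both tables, each time with the same direction, and 6 of them are shown for that reason. The one left out is a second window of Gm40237 that overlaps the first and holds 7 CG dinucleotides. Each is written 5′ to 3′ on the gene's strand, and capitals mark the bases inside the listed site of the susceptible table. The first pair belongs to divergent starts at chr15:46324335-46324634 (plus strand) and chr15:46324469-46324768 (minus strand), in the desert between Kcnv1 and Csmd3, where both stressed groups were lower.
1700022A22Rik: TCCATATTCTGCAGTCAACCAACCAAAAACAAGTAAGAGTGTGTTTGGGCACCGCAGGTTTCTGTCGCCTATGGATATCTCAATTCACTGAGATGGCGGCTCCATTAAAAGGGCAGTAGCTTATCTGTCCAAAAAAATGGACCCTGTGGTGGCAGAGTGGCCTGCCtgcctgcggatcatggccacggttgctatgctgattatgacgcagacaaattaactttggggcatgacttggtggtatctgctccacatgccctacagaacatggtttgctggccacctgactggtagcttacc
Gm41317: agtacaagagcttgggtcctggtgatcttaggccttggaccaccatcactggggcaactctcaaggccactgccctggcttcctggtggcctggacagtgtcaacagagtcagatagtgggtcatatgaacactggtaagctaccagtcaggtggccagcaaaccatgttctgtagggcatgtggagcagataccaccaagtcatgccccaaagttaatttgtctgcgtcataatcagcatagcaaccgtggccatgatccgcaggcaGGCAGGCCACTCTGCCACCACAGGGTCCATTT
The window of 4930556G01Rik (chr4:30664346-30664645, plus strand) lies between Epha7 and Map3k7 under a site that was higher in both tables.
4930556G01Rik: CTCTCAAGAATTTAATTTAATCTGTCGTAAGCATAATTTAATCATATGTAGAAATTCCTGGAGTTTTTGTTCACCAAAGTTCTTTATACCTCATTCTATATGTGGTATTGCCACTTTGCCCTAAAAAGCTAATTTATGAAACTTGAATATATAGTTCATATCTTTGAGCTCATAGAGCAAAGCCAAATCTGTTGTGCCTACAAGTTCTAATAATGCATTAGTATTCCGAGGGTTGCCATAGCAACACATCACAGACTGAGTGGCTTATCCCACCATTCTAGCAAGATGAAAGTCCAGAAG
The window of Gm34623 (chr8:60195588-60195887, plus strand) lies under a site that was lower in both.
Gm34623: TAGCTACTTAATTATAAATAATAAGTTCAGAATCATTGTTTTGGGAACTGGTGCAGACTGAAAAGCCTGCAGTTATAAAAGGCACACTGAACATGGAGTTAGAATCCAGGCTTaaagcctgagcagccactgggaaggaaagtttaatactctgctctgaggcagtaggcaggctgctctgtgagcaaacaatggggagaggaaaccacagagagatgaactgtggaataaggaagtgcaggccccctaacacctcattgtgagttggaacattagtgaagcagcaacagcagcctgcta
The window of Gm46074 (chr8:20649078-20649377, plus strand) lies between Gm21119 and Defb33 under a site that was lower in both tables, with libraries that overlapped between groups in each.
Gm46074: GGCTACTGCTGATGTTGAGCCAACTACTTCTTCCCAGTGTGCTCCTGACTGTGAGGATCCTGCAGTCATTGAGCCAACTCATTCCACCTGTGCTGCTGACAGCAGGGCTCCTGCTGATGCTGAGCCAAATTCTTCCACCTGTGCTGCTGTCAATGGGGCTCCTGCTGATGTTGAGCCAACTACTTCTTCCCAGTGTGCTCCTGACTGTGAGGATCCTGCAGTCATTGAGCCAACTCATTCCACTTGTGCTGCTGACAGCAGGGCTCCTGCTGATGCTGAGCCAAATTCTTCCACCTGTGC
The window of Gm40237 (chr4:118547156-118547455, plus strand) lies under a site that was also lower in both, but in which H3K27me2 reads stood below the IgG background.
Gm40237: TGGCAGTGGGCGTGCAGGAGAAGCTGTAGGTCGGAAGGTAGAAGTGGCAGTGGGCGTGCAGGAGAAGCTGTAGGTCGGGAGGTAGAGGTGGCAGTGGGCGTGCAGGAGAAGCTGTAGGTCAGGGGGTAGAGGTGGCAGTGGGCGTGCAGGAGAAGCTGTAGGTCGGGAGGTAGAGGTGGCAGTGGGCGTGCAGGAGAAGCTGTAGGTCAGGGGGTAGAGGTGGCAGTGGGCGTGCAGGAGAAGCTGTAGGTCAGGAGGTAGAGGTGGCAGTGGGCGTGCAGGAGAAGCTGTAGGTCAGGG
Across all 32851 RefSeq windows of this length the median was 7 CG dinucleotides (letters CG, which read the same on both strands), and 94.6% held at least 1. The windows above held 6 in 1700022A22Rik, 3 in Gm41317, 2 in 4930556G01Rik and 0 in both Gm34623 and Gm46074, all below the median. That of Gm40237 held 10, above it. The count describes these windows only.

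At the chr15 start pair, the site chr15:46323401-46324500 held 70.8, 57.1, 62.6 and 73.8 normalised reads in the 4 susceptible libraries and 84.5, 91.8, 91.4 and 104 in the 4 controls. Every susceptible library was below every control, with means of 66.1 ± 7.64 against 92.95 ± 8.13 (SD, n = 4 each). The resilient table lists chr15:46323201-46324500 with 73.6, 57.5, 58.6 and 64.4 reads in resilient libraries and 95.3, 104, 99.4 and 112 in the same controls, again without overlap. The log2 ratio of the group means was -0.49 in susceptible and -0.69 in resilient mice. At the start of 4930556G01Rik, chr4:30664301-30665300 held 87.97, 95.7, 109 and 100.4 reads in susceptible libraries and 79.9, 74.4, 57.4 and 72.5 in controls, which did not overlap. In the resilient table chr4:30663801-30665100 held 139, 108, 107 and 131 reads against 110.01, 77.3, 68.5 and 85.3. There 1 control library (49) lay within the resilient range. The site over Gm34623, chr8:60194501-60195700, held 89.3, 70.97, 78.3 and 75.5 reads in susceptible and 95.1, 102, 99.2 and 118 in control libraries. The groups were apart in the susceptible table, while among resilient libraries 1 (library 60, at 76.6 reads) lay above the lowest control (72.9). Both tables use the same 4 control libraries, so a shared direction between them is not independent evidence.

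Depth differed between libraries. Per the file headers, H3K27me2 libraries averaged 24.1 to 32.2 reads per 1000-bp bin in resilient, 17.1 to 40.6 in susceptible and 10.6 to 40.5 in control mice. Control library 52 was the shallowest, with a median of 28 reads at the susceptible sites where the others held 60 to 133. The authors tested 48304 windows in the susceptible and 52728 in the resilient comparison, those that passed a count limit of 2 deviations per the file headers, and listed a site only where p was below 0.0001. Windows that were not listed were not analysed here, so the text describes where listed sites lay, not how often a tested window changed.

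The authors' adjusted p was at or below 0.05 for 1840 of the 1842 susceptible sites, beside 99.9% of all autosomal rows of that table and 4.3% when all called rows are set against the windows tested. It was so for all 4213 resilient sites, beside 100% of autosomal rows and 8.84% of the windows. Since sites were listed for a small p, these counts describe the list. Among the called sites, 1289 were higher and 551 lower in susceptible mice, beside 69.4% and 30.5% of all autosomal rows. In resilient mice 3424 were higher and 789 lower, beside 79.5% and 20.5% of rows. The share higher was thus 70.1% in susceptible mice (exact 95% interval 67.9 to 72.1) and 81.3% in resilient mice (80.1 to 82.4), intervals that cover counting error only. Rows outside the rule were higher in 65.1% and 62.8%. The difference between the tables was not tested, since sites of the same libraries are not replicates.

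The differences were small and alike in size. Sites were listed only at p below 0.0001 in the authors' pooled test. In both tables that limit leaves out smaller differences at these read levels, so the likeness is not a separate result. Higher sites had a median log2 ratio of group means of 0.48 in susceptible and 0.49 in resilient mice, and lower sites -0.47 in both. Across all sites the ratio ran from -0.67 to 0.82 in susceptible and from -0.89 to 1.0 in resilient mice. At higher sites the median level went from 68.6 normalised reads in controls to 95.9 in susceptible mice, and from 68.5 to 96.7 in resilient mice. At lower sites it went from 97.5 to 70.2 and from 99.4 to 71.4. A site was 1100 bp long in the median, and the sites together covered 2137 kb and 5092 kb.

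Set against the spread between libraries, 1747 susceptible sites (94.8%) had an unadjusted p of 0.05 or less in limma on log2(normalised reads + 1), beside 93.8% of all autosomal rows. The resilient count was 4089 (97.1%), beside 95.8%. Adjusted over the listed rows alone, limma called 1733 and 4084, beside 93.0% and 95.7% of rows. Adjusted over the number of windows the authors tested, limma called 0 sites in either table (0.0% of autosomal rows). The smallest adjusted p was 0.58 in susceptible and 0.21 in resilient mice. Weighting recovered reads instead (voom in limma) also gave 0, with smallest adjusted p of 0.62 and 0.19 and unadjusted counts of 1704 and 4080. Windows that were not listed could not be fitted and were counted as not passing, so these adjusted p values are not from a fit of all windows. The libraries of the groups did not overlap at 1047 susceptible sites (56.8%), beside 57% of all autosomal rows, and at 2491 resilient sites (59.1%), beside 58.6%. Intergenic sites made up most of those autosomal rows, so these shares could not differ much from theirs. Among the autosomal rows outside the rule, limma gave an unadjusted p of 0.05 or less in 85.4% (susceptible table) and 83.9% (resilient table). The groups were apart at 58.4% and 53.7% of those other rows. The difference from the intergenic sites was not tested.

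Library by library, the 4 resilient libraries were nearly level at higher sites, with medians of 0.47 to 0.50 log2 units over the control mean, and the 4 susceptible libraries ran from 0.43 to 0.55. The controls were less even. In the susceptible table control library 52 stood at -0.29 and library 49 at 0.20, and library 52 was the lowest of 8 at 62.5% of higher sites and the highest of 8 at 55.9% of lower sites. Susceptible library 53, the second shallowest, was the highest at 41.2% of higher sites and the lowest at 51.5% of lower ones. Without control library 52 the pooled test, rebuilt from the normalised reads, called 1106 susceptible sites in place of 1840. All 1289 higher sites kept their direction then, with a median log2 ratio of 0.40, as did 551 of the 553 lower ones, called or not. Of the resilient sites, 3731 were called without library 52, and 3663 without control library 55. Leaving out any library also lowers the pooled reads. Shares over all autosomal rows without these libraries are not given, so whether the loss is particular to intergenic sites cannot be told from these values. In the resilient table library 55 was the lowest of 8 at 46.9% of higher sites.

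**Figure D1:**
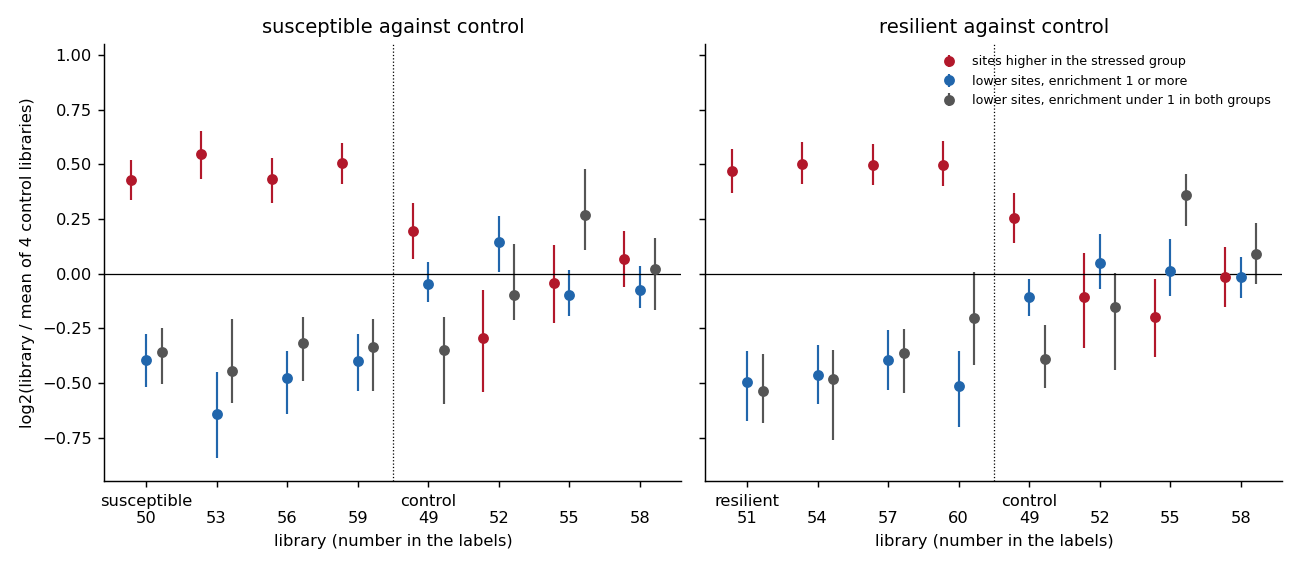
Level of each H3K27me2 library at intergenic sites, as the median (points) and quartiles over sites (lines) of the log2 ratio to the mean of the 4 control libraries; the left panel shows the susceptible table and the right panel the resilient table, with control libraries right of the dotted line. At higher sites (red) the stressed libraries sit at 0.43 to 0.55, while the controls spread from -0.29 to 0.25; at lower sites with reads below IgG (grey) control library 55 stands at 0.27 and 0.36.

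Of the 5 higher susceptible sites with the smallest authors' adjusted p, 3 lay between 879 and 1385 kb from any protein-coding gene. The farthest, chr3:11825001-11826300, lies 1385 kb from Snx16, a sorting nexin gene, within the non-coding gene Gm10745. It held 101, 120.3, 108 and 114 reads in susceptible and 95.8, 39.7, 63.2 and 69.4 in control libraries. No control reached a susceptible library, and limma gave a log2 change of 0.78 ± 0.21 (SE, unadjusted p = 0.0014). Aga, a lysosomal glycoprotein-degrading enzyme, flanks a desert of 4668 kb shared with Tenm3, a teneurin that connects synaptic partners, and this is the longest desert holding any site. In it chr8:52410501-52411800 held 110.5, 147, 95.9 and 110.3 reads in susceptible and 78.6, 74.4, 79.7 and 53.6 in control libraries. Those groups were apart as well, at 116 ± 21.6 against 71.6 ± 12.2 (SD, n = 4 each), a log2 ratio of 0.69.

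The other leading higher sites were also mostly apart. Near Tbx15, a T-box transcription factor gene, chr3:99447401-99449400 held 156, 182, 178 and 161 reads in susceptible and 119, 81.8, 122 and 132 in control libraries, without overlap. Beside the predicted gene Gm11238, chr4:73510701-73512800 held 226, 169.7, 217 and 215 against 172, 66.96, 145 and 172. This site had the smallest adjusted p of the higher group in the authors' deposited table, yet its lowest susceptible value lay below 2 controls, and its log2 ratio of 0.57 became 0.35 without control library 52. At chr2:100679301-100681300, 879 kb from B230118H07Rik, the reads were 186, 179, 181 and 172 in susceptible and 155, 96.7, 102 and 137 in control libraries, again apart.

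Lower sites whose reads exceeded IgG in at least 1 group were described by the same ranking, a group chosen after the values were seen. The leading one, chr3:149714101-149715500, lies in the desert between Adgrl2, a latrophilin adhesion receptor, and Adgrl4. It held 84.7, 77.1, 82.2 and 91.2 reads in susceptible and 108, 129, 161 and 111 in control libraries, and every susceptible library was below every control. At chr5:56314601-56315900, 1402 kb from the protocadherin gene Pcdh7, the values were 70.8, 67.9, 68.5 and 79.6 against 97.1, 146, 92.4 and 110.4, a log2 ratio of -0.64. Those groups did not overlap either. Of the 5 susceptible sites ranked this way, 4 were apart. The exception, chr6:5705101-5706300 near the dynein gene Dync1i1, held 94.6, 46.3, 96.9 and 87.1 reads in susceptible and 93.1, 126, 163 and 107 in control libraries. Of the 5 resilient ones only 1 was apart. All of these lay on chromosome 8 beside Gm21119 or Gpm6a, with unadjusted limma p from 0.046 to 0.18.

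In resilient mice 4 of the 5 leading higher sites had libraries that did not overlap between groups. The site chr10:48107201-48109800, 985 kb from the kainate receptor gene Grik2, held 244, 231, 237 and 212 reads in resilient and 191, 140.1, 148 and 128 in control libraries. All 4 resilient libraries were above all 4 controls, at 231 ± 13.7 against 152 ± 27.3 (SD, n = 4 each). Beyond Ctnnd2, the gene of delta-catenin, chr15:29449301-29450500 had the largest ratio of any intergenic site, a log2 of 1.0, with 85.2, 95.5, 90.3 and 92.2 reads against 65.2, 45.9, 35.7 and 34.9. Its limma p was the smallest of all intergenic sites (unadjusted p = 4.36e-05). Near the cadherin gene Cdh7, chr1:109782301-109783700 held 97.8, 122, 121 and 122 reads in resilient and 87.6, 43.5, 55 and 66.7 in control libraries. Near Nr2f1, a nuclear receptor that patterns the forebrain, chr13:79143201-79145000 held 156, 159, 142 and 157 against 116, 62.8, 105 and 86.1. Both were without overlap.

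The fifth leading site behaved otherwise. chr17:4625301-4627400, 367 kb from Arid1b, a subunit gene of the SWI/SNF chromatin remodeller, held 568, 319, 486 and 565 reads in resilient libraries and 391, 429.9, 248 and 212 in controls. The values overlapped, since controls 49 and 52 lay above resilient library 54. The same stretch is listed as lower in susceptible mice, with 320.1, 188, 222 and 305 reads, where controls 55 and 58 fell within the susceptible range.

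**Figure D2:**
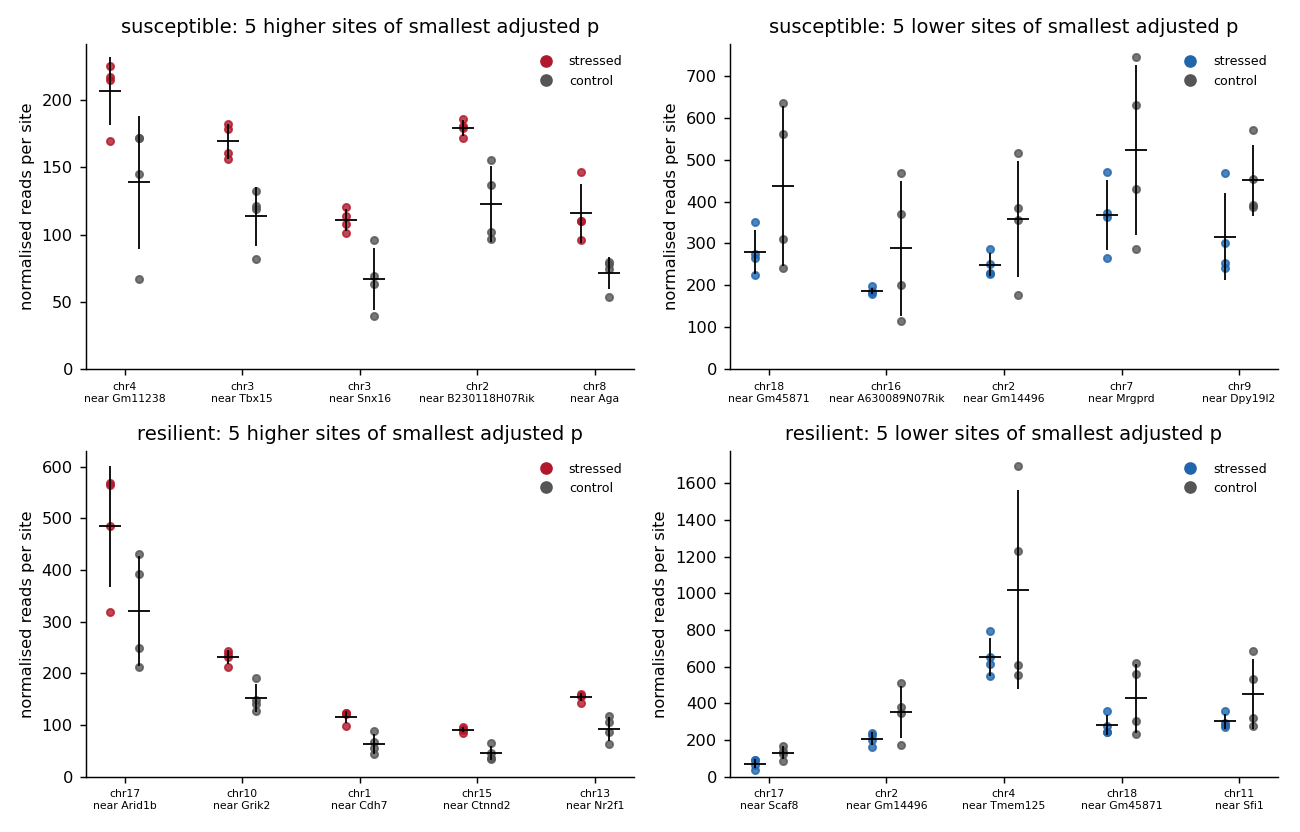
Normalised reads per library (points) with the mean and SD (black) at the 5 higher and 5 lower intergenic sites of smallest authors' adjusted p in each table, with the chromosome and nearest protein-coding gene under each. Groups are apart at 4 of 5 higher sites in each table, while at all 10 lower sites stressed and control libraries overlap.

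The 5 lower sites of smallest adjusted p in each table, listed at 0 in the authors' deposited tables, were of another kind. At all 10 the reads of both groups were below the IgG background, and the groups overlapped. At the end of chromosome 18, chr18:90601401-90603400 held 351, 265, 276 and 226 reads in susceptible and 240.4, 635, 562 and 311 in control libraries, with an enrichment over IgG in the authors' deposited table of 0.07 against 0.12. Controls 52 and 55 were far above the other libraries, and control 49 below 3 of the susceptible ones. The resilient table lists the same coordinates with 244, 358, 246 and 278 reads in resilient libraries. The site over Gm40237 on chromosome 4 held 612, 549.6, 655 and 793 in resilient and 608, 553, 1693 and 1229 in control libraries. Only controls 55 and 58 were above the resilient values there, and in the susceptible table its log2 ratio of -0.34 turned to 0.02 without control library 55.

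Enrichment under 1 in both groups marked 49 susceptible sites, 47 of them lower, and 62 resilient sites, 57 of them lower. Such rows were not confined to intergenic sites. Outside the rule, 19 of 233 autosomal rows of the susceptible table and 25 of 441 of the resilient table were under 1, all lower. The intergenic ones had a median of 268 and 283 normalised reads in controls at the lower sites, against 95.8 and 97.2 at the other lower sites. Only 14 of 47 and 17 of 57 reached an unadjusted p of 0.05 in limma, beside 93.8% and 95.8% of all autosomal rows. The groups were apart at 6 of the 47 and 4 of the 57, beside 57.01% and 58.6% of all autosomal rows. Among lower rows outside the rule, 68.3% and 62.8% reached that p, and the groups were apart at 51.2% and 37.8%. These differences were not tested. Control library 55 was the highest of 8 at 68.1% of the 47 and 80.7% of the 57. Their median distance to a gene was 34.01 kb and 48.3 kb, and 17 and 19 of them lay beyond the first or last protein-coding gene of a chromosome. Long non-coding RNA genes overlapped 17.02% and 28.1% of them, beside 6.92% and 6.97% of the other lower sites. One of them, chr17:39842401-39847200 on chromosome 17, covers Gm26917, Gm42418 and AY036118 and held 987, 1058, 1293 and 1536 reads in resilient and 1135, 1152, 2529 and 2253 in control libraries.

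**Figure D3:**
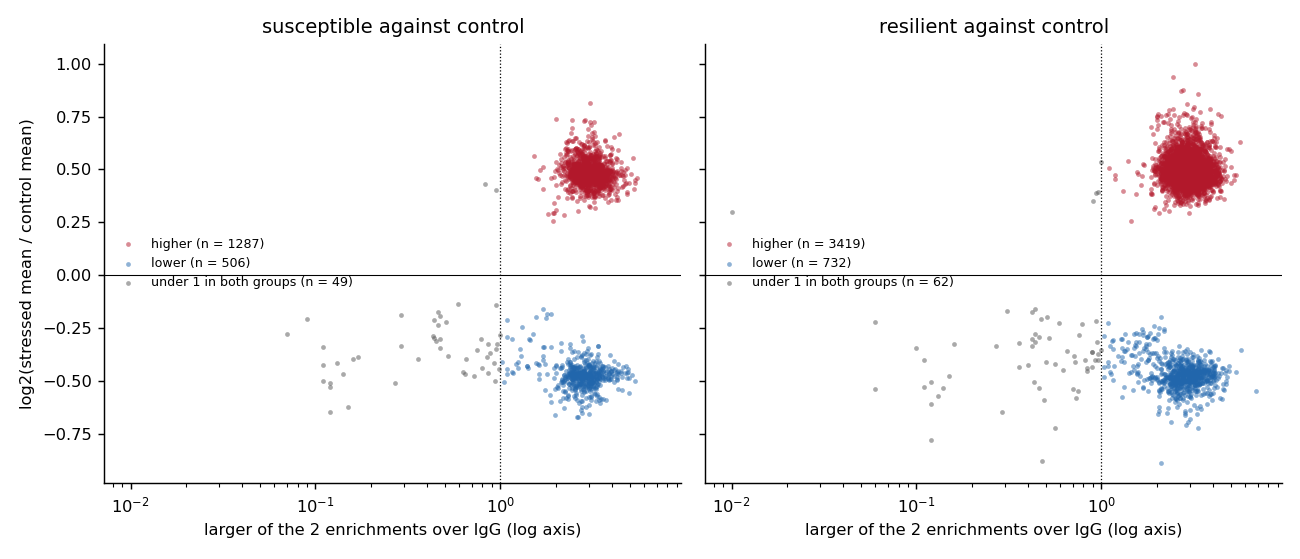
Log2 ratio of stressed to control means (vertical axis) against the larger of the 2 groups' enrichments over IgG (log axis), 1 point per intergenic site; the left panel shows susceptible mice and the right panel resilient mice. Grey points left of the dotted line at 1 are the 49 and 62 sites below IgG in both groups, of which 47 and 57 were lower; over all sites the quartiles are 2.62 and 3.32 in the left panel and 2.56 and 3.26 in the right panel.

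The remaining sites, higher and lower, had an enrichment of 1 or more in at least 1 group, by the way they were split. At some of them 1 group was still below IgG, such as chr8:20682101-20683400, at 0.73 in susceptible mice against 1.09 in controls. Higher sites had a median authors' enrichment of 3.01 in susceptible mice and 1.97 in their controls, and of 2.90 and 1.95 in the resilient table. Higher rows outside the rule were close to that, at 2.91 and 1.88 in the susceptible and 2.83 and 1.86 in the resilient table. Lower sites with enrichment of 1 or more had 2.17 in susceptible mice against 2.77 in controls, and 2.07 against 2.75 in the resilient table. The highest values were 5.47 at chr1:47846201-47847200 near Slc39a10, a zinc importer gene, and 6.88 in controls at chr14:97284201-97285300, in the desert between Klhl1 and Dach1. At the first, susceptible libraries held 78.7, 87.9, 109.6 and 83.8 reads and controls 63.4, 57.04, 63.2 and 78.1, which put 1 control within 1 read of the lowest susceptible library without reaching it. At the second, resilient libraries held 57.9, 63.1, 84.5 and 61.1 and controls 83.2, 101, 121 and 83.7, with resilient library 57 above 2 controls. The IgG reads behind each ratio were not used here.

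Sites lay far from genes. The median distance to the nearest protein-coding gene was 368 kb in the susceptible and 424 kb in the resilient table, where the median base between protein-coding genes lies 86.0 kb from one. More than 500 kb from any gene were 39.96% and 45.2% of sites, against 14.4% of intergenic bases, and more than 1 Mb away were 16.2% and 17.7%, against 4.56%. Only 4.34% and 2.94% lay within 10 kb. Where the tested windows lay was not given, so these shares describe the listed sites beside the genome and not beside the windows tested. Few rows lay at the edge of the position rule, with 2 and 9 outside every gene but within the window around a start. The nearest member to a gene start lay 1116 bp from it in the susceptible and 1118 bp in the resilient table, with log2 changes in the authors' deposited tables of 0.50 and -0.57, and the first site left out lay at 952 bp and 968 bp, with -0.45 and -0.44.

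Higher sites lay farther out than lower ones. Their median distance was 411 kb against 292 kb in susceptible and 477 kb against 259 kb in resilient mice. Without the sites below IgG, the lower sites still stood at 325 kb and 289.8 kb. The share of higher sites went from 57.5% of 80 sites within 10 kb of a gene, through 62.01% at 10 to 100 kb, 68.8% at 100 to 500 kb and 74.2% at 500 kb to 1 Mb, to 77.5% of 298 sites beyond 1 Mb in susceptible mice. In resilient mice it went from 47.6% of 124 sites through 67.96%, 80.8% and 86.4% to 89.7% of 745 sites. Each step was upward in both tables, which share their controls. Median control reads were 83.9 in the nearest and 76.3 in the farthest susceptible class, and 93.5 and 72.5 in the resilient ones, so the classes also differed in level. The part of level in the direction was not tested.

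**Figure D4:**
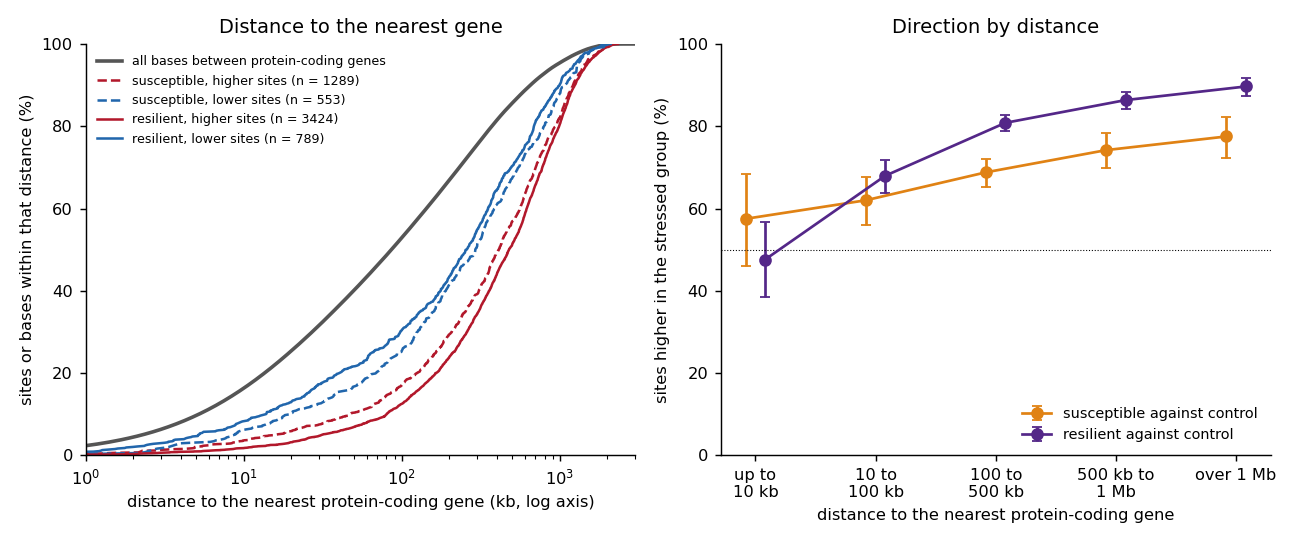
Left, share of sites (or of intergenic bases, grey) within a given distance of a protein-coding gene, on a log axis in kb; right, share of sites higher in the stressed group in 5 distance classes, with exact 95% intervals that cover counting error only. The site curves lie right of the grey curve, with medians of 259 to 477 kb against 86.0 kb, and the share of higher sites runs from 57.5% to 77.5% in susceptible and from 47.6% to 89.7% in resilient mice.

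The sites sat in long deserts. The gene-free interval around a site was 1648 kb in the median in the susceptible and 1834 kb in the resilient table, where the interval around a median intergenic base is 493 kb. Deserts over 1 Mb held 65.5% and 72.2% of sites with 31.99% of intergenic bases, and deserts over 2 Mb held 40.7% and 46.5% with 14.7%. Of the 248 autosomal deserts over 1 Mb, 159 held a susceptible and 176 a resilient site. Higher sites were again in the longer ones, with 69.2% against 56.96% of lower sites in deserts over 1 Mb in susceptible mice and 76.5% against 53.2% in resilient mice. Sites fell in 461 and 577 deserts in all, and 372 held sites of both tables, which is 80.7% of the first and 64.5% of the second list.

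The 3 fullest deserts in each table had a gene of neuronal adhesion on at least 1 flank. Between Cntnap5b, a contactin-associated protein gene, and the cadherin gene Cdh20 on chromosome 1, 4283 kb held 34 susceptible sites, 26 of them higher, and 88 resilient sites, 76 of them higher. Between Olfm4 and Pcdh17 on chromosome 14, 4420 kb held 31 susceptible sites (23 higher) and 79 resilient sites (73 higher). On the same chromosome, the desert between the protocadherin genes Pcdh20 and Pcdh9 held 30 (24 higher) and 72 (64 higher) in 4542 kb. On chromosome 3, the 2352 kb between Fstl5 and Rapgef2, which encodes an activator of the GTPase Rap, held 29 (23 higher) and 53 (49 higher). The tables differed in the desert of 2987 kb between Kcnt2 and Cdc73, the fourth fullest in resilient mice, where 62 of 68 resilient but only 7 of 15 susceptible sites were higher. That difference was not tested. The densest among the top resilient deserts was that between Rgs18, a regulator of G protein signalling, and Brinp3 on chromosome 1, with 53 sites in 1719 kb or 30.8 per Mb, 50 of them higher. Deserts with 5 or more sites mostly held both directions, 103 of 114 in the susceptible and 166 of 196 in the resilient table.

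Cadherins and protocadherins, calcium-dependent cell adhesion proteins, were the nearest gene of 179 susceptible sites (9.72%) and 522 resilient sites (12.4%), with 2.90% of intergenic bases nearest to them. Of these, 138 (77.1%) and 463 (88.7%) were higher, beside 70.1% and 81.3% of all called intergenic sites. Their median distance to the gene was 961 kb and 713 kb. Of all intergenic sites 500 kb to 1 Mb from a gene, 74.2% and 86.4% were higher, near the cadherin shares. The share of bases takes no account of desert length, and the part of distance was not tested. They went to 16 and 17 of the 94 genes of the family, led by Pcdh17 with 24 susceptible and 80 resilient sites, Pcdh20 with 17 and 45, and Pcdh7 with 16 and 55. Synaptic adhesion genes other than cadherins were nearest to 133 sites (7.22%) and 333 sites (7.90%), with 3.16% of bases, and 96 (72.2%) and 281 (84.4%) of them were higher, near the share over all sites. Cntnap5b led with 25 and 51 sites, beside Slitrk1, a postsynaptic organiser, with 12 and 44. Axon guidance genes were nearest to 49 sites (2.66%) and 125 sites (2.97%), with 1.56% of bases, of which Epha7, an ephrin receptor, had 27 and 48.

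Ion channel and receptor genes held at least their share of intergenic bases in both tables. Glutamate and GABA receptor genes were nearest to 0.92% of susceptible and 1.16% of resilient sites, with 0.79% of bases. These were 17 sites (13 or 76.5% higher) and 49 sites (46 or 93.9% higher), with Grik2 at 6 and 29. Potassium, sodium and calcium channel genes were nearest to 1.36% and 2.02% of sites, with 1.21% of bases. Of their 25 susceptible sites 11 (44%) were higher, and of their 85 resilient sites 75 (88.2%). Kcnt2, a sodium-activated potassium channel gene, made up 8 and 41 of these. Developmental transcription factor genes, the classical Polycomb targets, were nearest to 1.52% of sites in each table, with 2.35% of bases. Olfactory receptor genes had 9 sites in each table (0.49% and 0.21%, with 1.63% of bases), and zinc-finger protein genes 10 and 25 (0.54% and 0.59%, with 1.80% of bases). Vomeronasal receptor genes had 15 and 17 (0.81% and 0.40%, with 1.14% of bases). The nearest gene is a position and not a target, and no expression was measured in these tables.

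Many sites had another listed site nearby. Another intergenic site of the same table lay within 100 kb of 60.5% of susceptible and 85.3% of resilient sites, beside 60.6% and 84.6% for all autosomal rows. The median gap between neighbours was 144 kb and 49.6 kb. Most of those autosomal rows are the intergenic sites themselves, and the resilient table lists more sites. The spacing expected for that many sites was not computed, so these values describe the list. Joining neighbours within 100 kb left 727 and 620 single sites and gave 46 and 239 clusters of 5 or more sites, which held 290 and 2305 sites. The largest susceptible cluster, chr3:77715601-78240700, held 16 sites in 525 kb between Fstl5 and Rapgef2, 12 of them higher. Its leading site chr3:78158401-78159700 held 144, 127, 179 and 107 reads in susceptible and 112, 59.5, 106 and 107 in control libraries, which overlapped. The resilient table had 39 sites at chr3:77292601-78233900, 35 higher, led by chr3:78231101-78233900 with 251, 259, 286 and 229 against 239.9, 143, 179 and 168. There 1 control (49) lay above resilient library 60.

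The largest resilient clusters were at chr1:144863901-146413100 between Rgs18 and Brinp3, with 53 sites (50 higher), and at chr3:70888601-72421900 between Otol1 and Sis, with 46 (42 higher). Their leading sites did not overlap between groups. chr1:145057601-145059100 held 115, 151, 127 and 128 reads in resilient and 96.6, 89.4, 70.4 and 105 in control libraries. chr3:70925401-70926900 held 136, 121, 124 and 113 against 107, 60.4, 64.7 and 94.6. The third susceptible cluster, of 9 sites near Slc39a10 with 7 higher, was led by a lower site, chr1:47840501-47841900, at 94.6, 92.6, 106 and 100.4 reads against 123, 166, 115 and 151, also apart.

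Neighbours did not always share a direction. Adjacent sites within 10 kb had the same direction in 61.3% of 124 pairs in susceptible mice, against 59.9% of 257 pairs over 1 Mb apart. In resilient mice the shares were 77.2% of 706 pairs and 59.6% of 265 pairs. Most sites were higher in both tables, so many pairs share a direction without any link. The agreement expected from that alone was not computed. Pairs over 1 Mb apart are no neutral reference, since 38 of the 265 but 52 of the 706 resilient pairs were both lower. Clusters of 5 or more sites that were all higher numbered 7 of 46 and 81 of 239, and those all lower 1 and 4.

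Some deserts held more lower than higher sites, and 2 stretches on chromosome 8 are described here. Elsewhere in the resilient table all 9 sites between C130026I21Rik and G530012D18Rik and all 8 between Ube3a and Gm38393 were lower. So were all 5 between Gm8138 and Gm5799. In that order, median authors' enrichments were 1.67 in resilient against 1.84 in control mice, 0.505 against 0.715, and 1.42 against 1.69. Between Ube3a and Gm38393 the median was thus below IgG in both groups. Between Gm31371 and Gm15319 on chromosome 8 all 5 susceptible sites were lower, and 3 of 5 resilient ones. Median enrichments there were 0.65 against 1.02 in the susceptible and 0.93 against 0.95 in the resilient table. Around Gm15319, Gm21119 and Defb33, next to the beta-defensin genes of innate immunity, chr8:20539801-20683400 held 12 susceptible sites, 11 of them lower, with a median authors' enrichment of 0.68 in susceptible and 0.91 in control mice. In resilient mice 8 of 9 sites in the desert before Gm21119 and 8 of 8 in the desert after it were lower. The leading susceptible site of the cluster, chr8:20682101-20683400, held 112, 103, 122 and 95.4 reads in susceptible and 107, 94.2, 226 and 162 in control libraries, which overlapped. Between Gpm6a, a neuronal membrane glycoprotein gene, and Adam29, 810 kb held 6 susceptible sites, all lower, and 18 resilient sites, 15 of them lower. There chr8:55118401-55121500 held 1356, 1370, 1416 and 1364 reads in resilient and 1428, 1449, 2017 and 1683 in control libraries, just apart, with an enrichment of 1.46 against 1.65. At its neighbour chr8:55372201-55375200, which covers the start of Gm51573, the values were 1106, 1067, 1182 and 1093 against 1160, 1169, 1921 and 1496. Controls 55 and 58 were above the rest at both, and the part of these libraries in the result was not tested.

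Sites were spread unevenly over autosomes. Per Mb of intergenic DNA, susceptible sites were densest on chromosomes 3 (2.95), 1 (2.43) and 14 (2.19), and resilient sites on chromosomes 1 (6.41), 3 (6.18) and 14 (6.02). Chromosomes 7, 9, 17 and 19 held only 2, 6, 7 and 1 susceptible sites and 11, 8, 9 and 0 resilient ones, although they make up 5.75%, 4.68%, 3.77% and 2.11% of intergenic bases. Higher sites among them numbered 0, 3, 1 and 0 in susceptible mice and 0, 2, 1 and 0 in resilient mice. On the other autosomes the share higher ran from 60% to 75.8% in susceptible and from 62.8% to 85.8% in resilient mice. With the rows outside the rule included, the tables held only 2, 7, 7 and 1 and 12, 10, 10 and 0 rows on those chromosomes.

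**Figure D5:**
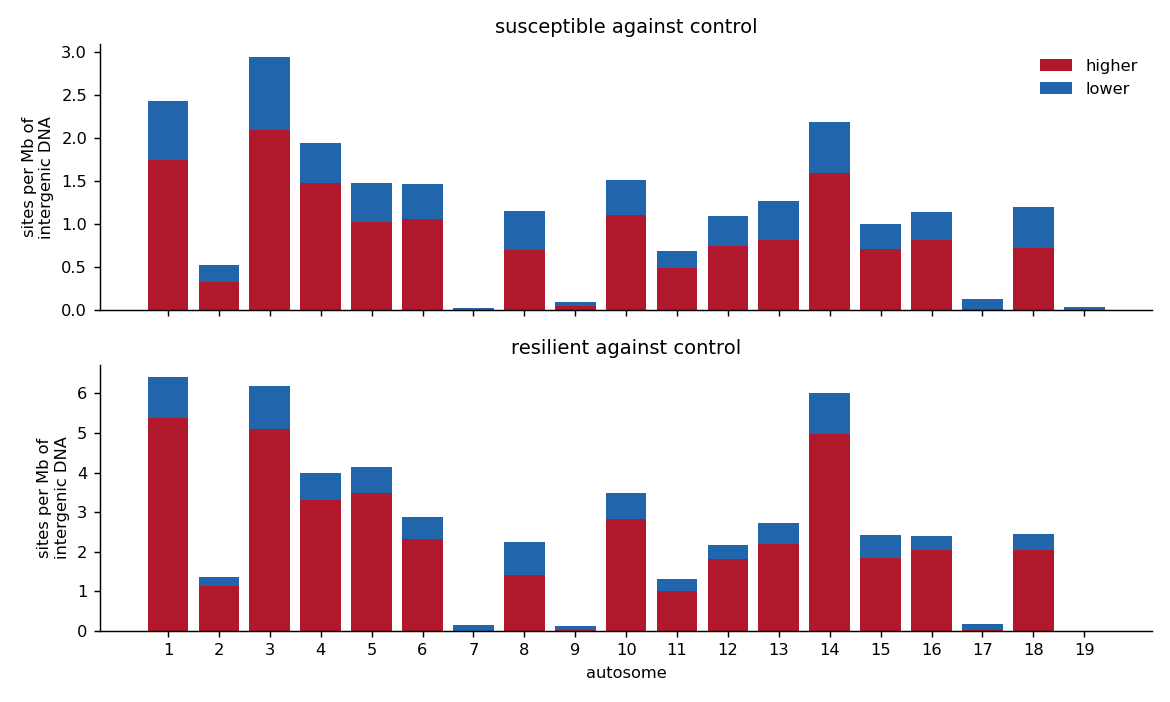
Intergenic H3K27me2 sites per Mb of intergenic DNA on each autosome, stacked as higher (red) and lower (blue) in susceptible mice (top) and resilient mice (bottom). Chromosomes 1, 3 and 14 carry 2.19 to 2.95 sites per Mb in the top panel and 6.02 to 6.41 in the bottom one, and chromosomes 7, 9, 17 and 19 at most 0.17.

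Most sites carried no annotated gene of any kind: 1676 of 1842 and 3923 of 4213 overlapped no GENCODE gene. Long non-coding RNA genes overlapped 6.68% and 5.08% of sites, where they cover 10.4% of intergenic bases, and pseudogenes 2.23% and 1.64%, where they cover 1.56%. The farthest site from any gene in each table held no annotation. At 2243 kb from Pcdh9, chr14:90769801-90770800 held 76.7, 81.8, 89.1 and 89.6 reads in susceptible and 76.6, 64.5, 42.8 and 57.6 in control libraries. The lowest susceptible library stood just above the highest control. At 2331 kb from Tenm3, chr8:51175301-51177000 held 123, 144, 135 and 144 reads in resilient and 115, 99.03, 73.3 and 103 in control libraries, which were apart. In the same 4668 kb desert, chr8:53095301-53096400 held 85.2, 86.6, 85.5 and 107 against 62.7, 55.5, 44.4 and 51.95, a log2 ratio of 0.76.

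Few sites overlapped a listed site of H3K27me1, the product of the step before. Of the susceptible sites 15 (0.81%) overlapped a listed H3K27me1 site of susceptible mice, and of the resilient sites 19 (0.45%) one of resilient mice. Of the former, 11 had H3K27me2 reads below IgG. The overlap that position alone would give was not computed.

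The tables overlapped at 349 susceptible sites (18.9% of that list) and 353 resilient sites (8.38%). Of the 349, 203 were higher and 139 lower in both, and 7 had opposite directions. Lower sites overlapped in 25.9% of susceptible and 18.4% of resilient cases and higher sites in 15.98% and 6.07%. The overlap was 72.3% and 61.4% among lower sites below IgG, and 21.5% and 15.0% among the other lower sites. Because controls are shared, a control library that stands apart moves both tables at once.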

How the data were processed

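H3K27me2 was profiled by CUT&RUN in 12 libraries (4 control, 4 susceptible, 4 resilient) among 72 samples of the series. Per the submitters' processing notes the tools included Bowtie2 2.4.1 with mm10, MACS2 2.2.6, SAMtools 1.10, and cutadapt 2.10 with Trim Galore 0.6.5. Per the file headers, the authors ran diffReps 1.55.4 on unique, duplicate-removed reads, with windows of 1000 bp moved in steps of 100 bp and a G-test on reads pooled over libraries. The deposited signal is normalised reads per library and group, with a ratio over the IgG libraries of each group, a log2 change and a p-value that the authors adjusted over the windows tested. Control library 52 had the fewest reads and so the widest counting error.

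Members were chosen by position against GENCODE M21, and the members, gene lists and named sites were chosen with earlier results of these data known. Named sites were, per table, the 5 higher and 5 lower of smallest authors' adjusted p, the 3 farthest from a gene, those of highest enrichment, those in the longest deserts, leading cluster sites and those over RefSeq start windows. Log2 ratios of group means and distances were computed in Python 3.11.15 with pandas 2.3.3, numpy 2.4.6 and scipy 1.17.1. Libraries were compared with limma 3.58.1 (R 4.3.3) on log2(normalised reads + 1), fitted on each whole table and tested on simulated data. The authors' adjusted p is the call, and limma's p measures the spread between libraries at sites already selected on those libraries. Whole reads were recovered for at least 99.8% of values (tolerance 0.1). The rebuilt pooled test, scaling by mean reads per window and voom were added after seeing the data.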

Additional observations from a re-analysis of the deposited data

Results flagged for a closer look

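At 4 of 150 site groups 1 of the 4 libraries stood apart, measured as its gap to the nearest library over the whole range of the group. Chance gives about 5% of groups. In the susceptible table control library 52 was low at chr3:78158401-78159700, with 59.5 normalised reads where the nearest control had 106 (ratio 0.881). Susceptible library 53 was high at chr1:101154501-101155900, with 174 against 127 (ratio 0.873). In the resilient table library 51 was low at chr1:109782301-109783700 near Cdh7, with 97.8 against 121 (ratio 0.95), and library 60 was high at chr8:53095301-53096400, with 107 against 86.6 (ratio 0.935).

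At 6 pairs of overlapping sites every susceptible library lay on 1 side of the control mean and every resilient library on the other. The difference between the groups was not tested, and the listed sites share only 100 to 400 bp. The log2 ratio was 0.48 in susceptible and -0.48 in resilient mice at chr13:85453701-85454700 (nearest gene Rasa1), 0.44 and -0.52 at chr14:98669301-98670700, and 0.48 and -0.65 at chr5:11133801-11134900. It was -0.37 and 0.55 at chr4:67599501-67600700 (nearest gene Tlr4), -0.43 and 0.48 at chr5:84857101-84858100 (nearest gene Epha5), and -0.43 and 0.43 at chr6:20100601-20101600 (nearest gene Kcnd2).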

How the results depend on the processing

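Adjusted over the number of windows tested, with unlisted windows counted as not passing, limma called 0 sites in either table. Leaving out 1 library at a time also lowers the pooled reads, and shares over all autosomal rows are not given. This left 1106 to 1816 called susceptible sites, lowest without control library 52, and 3663 to 4207 called resilient sites. The share higher was then 67.1% (without control library 52) to 73.1% (without susceptible library 53) and 81.2% to 82.1%. Sites with an unadjusted limma p of 0.05 or less numbered 1315 to 1701 and 3501 to 4125. Leaving out genes of any GENCODE type as well gave 82.6% higher, a median distance of 449 kb and 84.0% with a neighbour within 100 kb in the resilient table. Neighbours were within 10 kb at 13.0% and 30.1% of sites and within 1 Mb at 95.7% and 98.2%. The median enrichment in controls alone was 2.12 and 2.0, in place of 2.94 and 2.87 in the higher group. Among 75 named sites, 584 of 600 refits without a library kept direction and call, 15 at 11 sites lost the call, and chr4:118546501-118549200 turned to a log2 ratio of 0.0168 without control library 55 (its other refits reached down to -0.54, and the cause was not tested). The planned edgeR fit was not run. No paired analysis was possible because the groups share no replicate numbers.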
